A study of Homo sapiens with 4 samples.

Results

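Replication-dependent histone genes are the clustered genes that supply histones H1, H2A, H2B, H3 and H4 while DNA is copied. They were chosen by symbol: every row whose symbol consists of HIST, a cluster digit and a histone class, without the symbols given to pseudogenes by PS or by P and a digit. The rule took 69 of the 28482 genes in the table, with 6 members for H1, 16 for H2A, 22 for H2B, 12 for H3 and 13 for H4. Of these, 65 are protein-coding in GENCODE release 29, 3 are H2B pseudogenes (HIST2H2BA, HIST2H2BB and HIST2H2BD) and the identifier of HIST2H2BC could not be matched there. RNA was sequenced from K562/G01, a K562 derivative that resists imatinib. The parent K562 is an established chronic myeloid leukemia line, driven by the BCR-ABL1 kinase that imatinib inhibits. All cells carried a lentiviral short hairpin, directed either at the Wnt-responsive transcription factor TCF7 or at no gene (scramble). The 4 groups were TCF7 knockdown cells with imatinib at 1 µM for 48 hours, TCF7 knockdown cells without it, scramble cells with the same imatinib treatment, and scramble cells without it. Each group had 1 library. The labels describe stable infection with 1 TCF7 hairpin vector and do not say whether cultures were infected or treated separately.

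Histone mRNAs of this kind are made mainly in S phase, when new chromatin needs histones, and they are degraded when DNA synthesis stops. In place of a poly(A) tail most of them end just after a conserved stem-loop, which is bound by the protein SLBP and cut by a complex that contains the U7 small RNA. H2A, H2B, H3 and H4 form the nucleosome core, H1 binds the linker DNA between nucleosomes, and replacement histones encoded by ordinary polyadenylated genes supply chromatin outside S phase. Libraries selected for poly(A) lose most of these transcripts, while the libraries used here were depleted of ribosomal RNA and retain them.

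The stem-loop is the feature that joins the family, so its forms are shown first, from the GENCODE release 29 transcripts on GRCh38 with 5 bases on each side where the transcript has them. The search took a 4-base loop, with T as the first and the third base, between 6 pairs that open with GG and close with CC, the innermost being T with A and the others allowing G with T, in the transcript's own direction. HIST1H2BI held the fixed letters without all 6 pairs and is not counted. The capitals mark the 16 bases of the stem-loop, from 5′ to 3′.
HIST1H2AE: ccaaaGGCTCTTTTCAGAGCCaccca
HIST1H2BD: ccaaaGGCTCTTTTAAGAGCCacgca
HIST1H4H: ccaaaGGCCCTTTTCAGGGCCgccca
HIST1H4I: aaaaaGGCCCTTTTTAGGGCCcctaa
HIST1H2AG: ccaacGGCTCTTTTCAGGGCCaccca
HIST1H3E: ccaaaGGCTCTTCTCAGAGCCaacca
A stem-loop was found in 33 of the 68 members with a transcript in the annotation. The form of HIST1H2AE was the most frequent, with 18 members of the H2A, H2B and H3 classes. The form of HIST1H2BD was found in 5 members, that of HIST1H4H in 4 H4 genes and that of HIST1H4I in 3 H4 genes. The form of HIST1H2AG was found in 2 members and that of HIST1H3E in 1. In the other 16613 protein-coding genes of the table with a transcript, 100 (0.602%) held such a stem-loop anywhere and 6 (0.0361%) held it within the last 60 bases, where 14 of the 33 members had it. Of the 33 protein-coding members without a match, 29 have a single annotated transcript whose length is a multiple of 3. Where such a model holds only the coding sequence, the search does not reach the end of the mRNA. HIST1H4C and HIST1H2BA have longer models than most of their class in this group. In 16 of the 33 members with the stem-loop it lies more than 200 bases before the annotated end, which marks models that extend past the processing site.

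Library totals lay between 30634832 and 34095585 counts. The targeted gene TCF7 had 117 counts in TCF7 knockdown cells with imatinib, 78 in TCF7 knockdown cells, 367 in scramble cells with imatinib and 339 in scramble cells. All 10 K562 and erythroid markers looked up, among them GATA1 and HBG2, had at least 1 CPM in each library. Of 9 markers of other cells in the table, 4 reached that level (LYZ, EPCAM, PECAM1 and KRT18), while CD3E, CD14 and MPO were at or near 0. COL1A1, a collagen of fibroblasts, had 1.01 CPM in TCF7 knockdown cells with imatinib, 1.38 in TCF7 knockdown cells, 0.204 in scramble cells with imatinib and 0.151 in scramble cells and rose with knockdown (fitted log2 fold change 2.71, SE 0.562, edgeR adjusted p = 0.00143), while PECAM1 fell with knockdown (fitted log2 fold change -0.63, SE 0.0998, edgeR adjusted p = 3.71e-05). The part of other cells in the histone results was not tested. The summed level of the 9 was 388.8 CPM in TCF7 knockdown cells with imatinib, 339.5 in TCF7 knockdown cells, 380.2 in scramble cells with imatinib and 355 in scramble cells. With 1 library per group, a ratio between 2 libraries is a size with a 95% counting interval and no replicate check. The only test sets 2 libraries against 2, for knockdown over both imatinib states or imatinib over both knockdown states, in edgeR's quasi-likelihood fit with both factors over all genes. Its p-values rest on 1 residual degree of freedom, the departure from additive effects of the 2 factors. They also rest on 33.7 prior degrees of freedom taken from all genes. They do not measure the spread between replicate libraries, of which there are none. A lasting difference between the hairpin cultures cannot be told apart from an effect of TCF7. The words rose and fell are used for genes that passed this test at an adjusted p under 0.05. Statements that the libraries with imatinib lie above those without it, or do not overlap them, describe these values only. The share of all genes with the same order was not counted, so that order adds no support to a call.

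Histone transcripts made up just under 1% of all counts, and the amount was higher with imatinib in both hairpin backgrounds. The 69 members summed to 8794 CPM in TCF7 knockdown cells with imatinib, 7797 in TCF7 knockdown cells, 8367 in scramble cells with imatinib and 7358 in scramble cells, which was 0.874% of the counts in TCF7 knockdown cells with imatinib, 0.773% in TCF7 knockdown cells, 0.843% in scramble cells with imatinib and 0.734% in scramble cells. Both libraries with imatinib were higher than both without it. The log2 ratio of imatinib over none was 0.17 (counting interval 0.17 to 0.18) in TCF7 knockdown cells and 0.19 (0.18 to 0.19) in scramble cells. Knockdown over scramble gave 0.07 (0.06 to 0.08) under imatinib and 0.08 (0.08 to 0.09) without it. With the trend over GC content and transcript length across all genes removed, the ratios of imatinib over none were 0.0033 in TCF7 knockdown cells and 0.098 in scramble cells, and those of knockdown over scramble were -0.025 under imatinib and 0.069 without it. In bulk RNA a larger share of cells in S phase and more histone mRNA per cell cannot be told apart.

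Counts were spread over many genes, and 26 members had at least 100 CPM in all 4 libraries. Per kilobase of the longest annotated transcript, the highest mean levels over the libraries were 1732 CPM for HIST1H1C, a linker histone, 1289 for HIST1H2BK and 1237 for HIST1H3B. Lengths that stop at the coding sequence raise such a value. At the other end, 15 members stayed under the filter of 1 CPM in at least 2 libraries, and none of these exceeded 40 counts in any library. Among them were genes known from the testis: HIST1H2BA, an H2B of sperm precursors, had 1 count in TCF7 knockdown cells and 0 in the other 3 libraries, each of which allows up to 3 counts. HIST3H3, the H3 of the testis, had 6 counts in TCF7 knockdown cells with imatinib, 0 in TCF7 knockdown cells, 1 in scramble cells with imatinib and 2 in scramble cells. HIST1H1T, the testis linker histone, passed the filter with 61 counts in TCF7 knockdown cells with imatinib, 43 in TCF7 knockdown cells, 34 in scramble cells with imatinib and 17 in scramble cells. The 54 members that passed (5 for H1, 14 for H2A, 16 for H2B, 8 for H3 and 11 for H4) are those tested. The last to pass had a mean of 1.21 CPM and the highest that did not had 0.885 CPM. Of those that did not pass, HIST1H2AD, HIST1H2AM and HIST2H2BB share 97.8%, 85.3% and 93.7% of their 75-base stretches with other genes. How reads that match several genes were assigned is not given, so the low counts of these rows are uncertain.

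The classes differed in how far they moved with imatinib. Summed H1 transcripts had 2017 CPM in TCF7 knockdown cells with imatinib, 1587 in TCF7 knockdown cells, 1841 in scramble cells with imatinib and 1458 in scramble cells. Summed H2A transcripts had 2209 CPM in TCF7 knockdown cells with imatinib, 1787 in TCF7 knockdown cells, 2069 in scramble cells with imatinib and 1722 in scramble cells. Summed H3 transcripts had 1010.4 CPM in TCF7 knockdown cells with imatinib, 921 in TCF7 knockdown cells, 972 in scramble cells with imatinib and 878 in scramble cells. Summed H4 transcripts had 1165 CPM in TCF7 knockdown cells with imatinib, 1140.2 in TCF7 knockdown cells, 1163 in scramble cells with imatinib and 1081 in scramble cells. For H1, H2A, H3 and H4, both libraries with imatinib exceeded both without it. Summed H2B transcripts had 2393 CPM in TCF7 knockdown cells with imatinib, 2363 in TCF7 knockdown cells, 2323 in scramble cells with imatinib and 2219 in scramble cells. Each H2B sum with imatinib exceeded that of its own background, but the drug libraries and the others overlapped. The log2 ratios of imatinib over none were 0.35 in TCF7 knockdown cells and 0.34 in scramble cells for H1, and 0.31 in TCF7 knockdown cells and 0.26 in scramble cells for H2A. They were 0.02 in TCF7 knockdown cells and 0.07 in scramble cells for H2B, 0.13 and 0.15 in these cells for H3, and 0.03 and 0.11 for H4. With the trend over GC content and length removed, the direction turned for H3 in both backgrounds (-0.18 in TCF7 knockdown cells and -0.037 in scramble cells) and for H2B in TCF7 knockdown cells (-0.052), and the H4 ratio there was near 0. As a share of all histone counts, H1 made up 22.9% in TCF7 knockdown cells with imatinib, 20.3% in TCF7 knockdown cells, 22.0% in scramble cells with imatinib and 19.8% in scramble cells. The share of H2B was 27.2% in TCF7 knockdown cells with imatinib, 30.3% in TCF7 knockdown cells, 27.8% in scramble cells with imatinib and 30.2% in scramble cells.

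**Figure D1:**
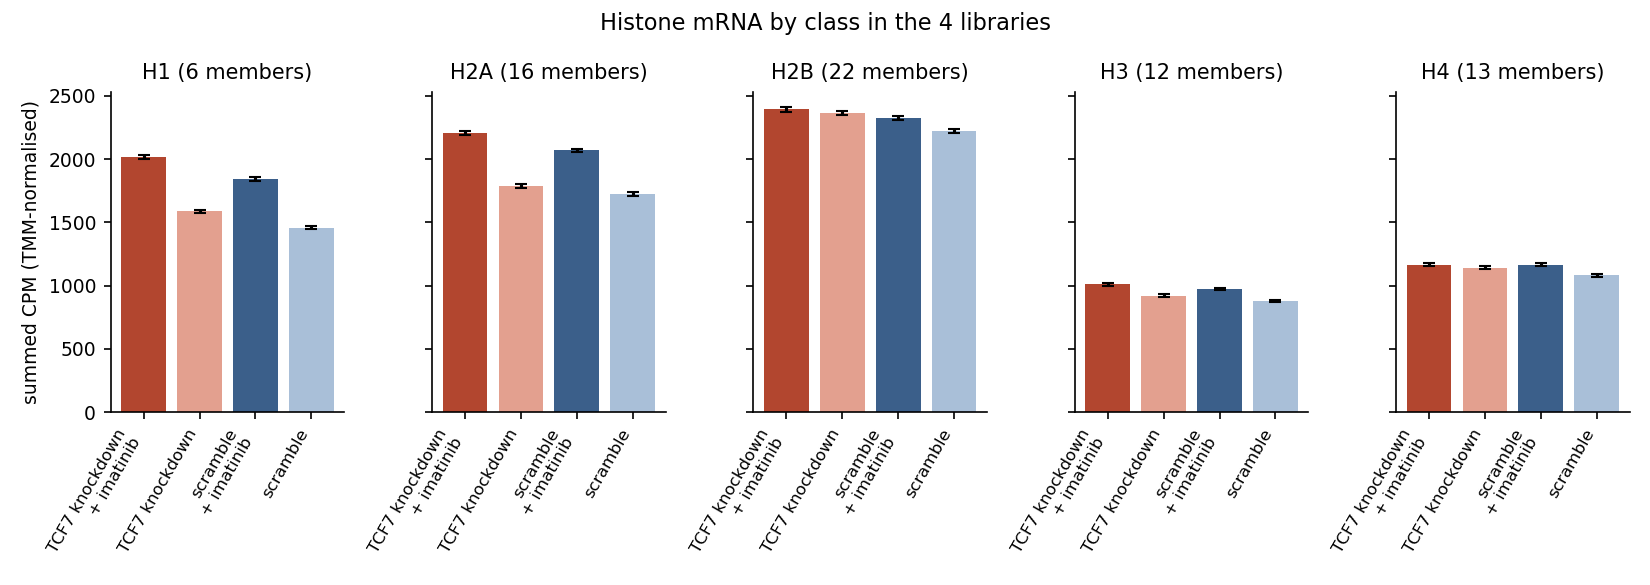
Summed CPM of all members of each histone class (y axis, TMM-normalised) in the 4 libraries, 1 bar per library, with exact 95% Poisson intervals that cover counting error only. The libraries with imatinib stand above their partners in all 5 classes, with the largest ratios for H1 (2017 against 1587 CPM in TCF7 knockdown cells, 1841 against 1458 CPM in scramble cells) and H2A, while the H2B bars lie between 2219 and 2393 CPM.

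Across the whole table, imatinib changed 20.9% of the 13296 genes tested (13.8% rose and 7.08% fell). Of the 54 histone members tested, 24 rose and 1, HIST2H2AA4, fell. By class, 4 of 5 H1 genes rose, 11 of 14 H2A genes rose and 1 fell, 3 of 16 H2B genes rose, 3 of 8 H3 genes rose and 3 of 11 H4 genes rose. The median log2 ratio of the members tested was 0.29 in TCF7 knockdown cells and 0.20 in scramble cells, against 0.01 in TCF7 knockdown cells and -0.01 in scramble cells for all genes tested. GC content moved with the drug ratio across the table, and the members are GC-rich. After a smooth curve fitted to GC content and transcript length was subtracted, the members' medians were 0.07 in TCF7 knockdown cells and 0.14 in scramble cells. With that curve entered as offsets in edgeR, 14 members rose and 5 fell. With the fit that leaves the knockdown out of the model 0 members were called, and leaving out 1 library from that same fit gave 0 to 12 that rose. With 3 libraries the fit with both factors has no residual degree of freedom, so the effect of a library alone cannot be separated from that of the model.

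**Figure D2:**
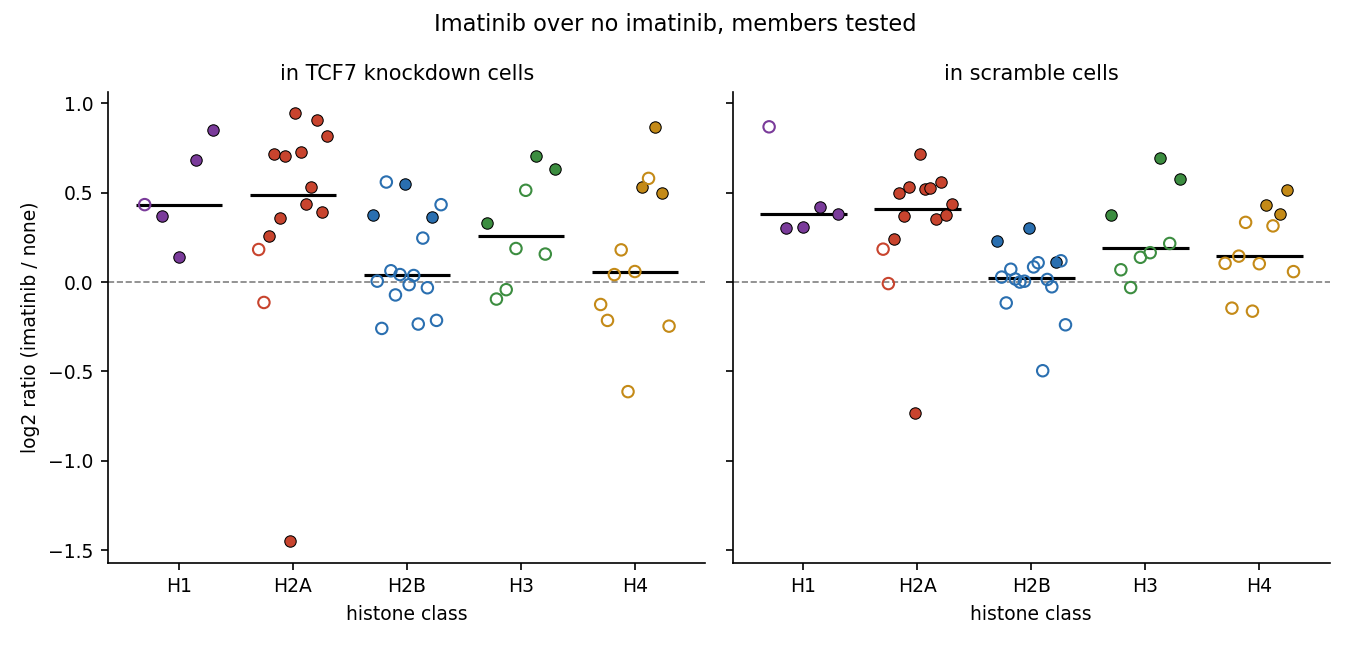
Log2 ratio of imatinib over none (y axis) for each of the 54 members tested, by histone class (x axis), in TCF7 knockdown cells (left) and scramble cells (right). Filled points passed edgeR's test for imatinib over both backgrounds, open points did not, and black lines are class medians; the H2A medians are 0.49 in TCF7 knockdown cells and 0.41 in scramble cells, and the H2B medians are 0.04 and 0.02.

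The linker histones H1 rose in 4 of the 5 genes tested. HIST1H1E, which encodes H1.4 (chr6:26156354-26157107, GRCh38), had 504 CPM in TCF7 knockdown cells with imatinib, 279.9 in TCF7 knockdown cells, 456 in scramble cells with imatinib and 350.4 in scramble cells. Both libraries with imatinib were above both without it, and the gene rose (fitted log2 fold change 0.61, SE 0.0798, edgeR adjusted p = 1.73e-06; ratios 0.85 in TCF7 knockdown cells and 0.38 in scramble cells). HIST1H1B, which encodes H1.5, had 202 CPM in TCF7 knockdown cells with imatinib, 126 in TCF7 knockdown cells, 193 in scramble cells with imatinib and 144 in scramble cells, again without overlap. It rose (fitted log2 fold change 0.55, SE 0.0754, edgeR adjusted p = 3.26e-06). HIST1H1C, which encodes H1.2 and was the most abundant member, had 1256 CPM in TCF7 knockdown cells with imatinib, 1139 in TCF7 knockdown cells, 1136 in scramble cells with imatinib and 918 in scramble cells. Its drug and drug-free libraries overlapped only at the level of 1139 CPM in TCF7 knockdown cells and 1136 CPM in scramble cells with imatinib, and it rose by less (fitted log2 fold change 0.22, SE 0.071, edgeR adjusted p = 0.0219). HIST1H1D, which encodes H1.3, rose as well (fitted log2 fold change 0.34, SE 0.0916, edgeR adjusted p = 0.00854; ratios 0.37 in TCF7 knockdown cells and 0.30 in scramble cells). HIST1H1T had ratios of 0.43 (counting interval -0.14 to 1.05) in TCF7 knockdown cells and 0.87 (counting interval 0.06 to 1.88) in scramble cells and did not pass (edgeR adjusted p = 0.268). With the GC and length offsets, HIST1H1E and HIST1H1B rose, and HIST1H1C and HIST1H1D did not pass.

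H2A was the class with the most genes that rose, 11 of 14. HIST1H2AH had 242 CPM in TCF7 knockdown cells with imatinib, 146 in TCF7 knockdown cells, 224 in scramble cells with imatinib and 157 in scramble cells. HIST1H2AI had 331 CPM in TCF7 knockdown cells with imatinib, 258 in TCF7 knockdown cells, 317 in scramble cells with imatinib and 245 in scramble cells. HIST1H2AE, whose stem-loop is shown above, had 214 CPM in TCF7 knockdown cells with imatinib, 179 in TCF7 knockdown cells, 218 in scramble cells with imatinib and 185 in scramble cells. In all 3 genes the libraries with imatinib were above those without it, and each rose. HIST1H2AH had a fitted log2 fold change 0.62, SE 0.0731, edgeR adjusted p = 3.92e-07. HIST1H2AI had a fitted log2 fold change 0.37, SE 0.0694, edgeR adjusted p = 0.000262. HIST1H2AE had a fitted log2 fold change 0.25, SE 0.0705, edgeR adjusted p = 0.0112. The other 8 H2A genes that rose include HIST2H2AA3, described below. HIST2H2AC had ratios of 0.53 in TCF7 knockdown cells and 0.35 in scramble cells. HIST1H2AB had 0.70 in TCF7 knockdown cells and 0.53 in scramble cells, and HIST1H2AL had 0.81 in TCF7 knockdown cells and 0.44 in scramble cells. HIST1H2AK had 0.91 in TCF7 knockdown cells and 0.56 in scramble cells. HIST2H2AB had 0.39 in TCF7 knockdown cells and 0.38 in scramble cells. HIST3H2A, from the small cluster on chromosome 1, had 0.72 in TCF7 knockdown cells and 0.50 in scramble cells, and HIST1H2AJ had 0.44 in TCF7 knockdown cells and 0.52 in scramble cells. The edgeR adjusted p-values over these 7 genes ran from 8.08e-06 for HIST1H2AK to 0.0373 for HIST1H2AJ.

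The members of H2A that did not rise were the most abundant ones and 1 of a pair of copies. HIST1H2AG had 399 CPM in TCF7 knockdown cells with imatinib, 432 in TCF7 knockdown cells, 440.1 in scramble cells with imatinib and 443 in scramble cells, and the ratios of imatinib over none were -0.11 in TCF7 knockdown cells and -0.01 in scramble cells. HIST1H2AC had 438 CPM in TCF7 knockdown cells with imatinib, 386 in TCF7 knockdown cells, 364 in scramble cells with imatinib and 321 in scramble cells, with ratios of 0.18 in TCF7 knockdown cells and 0.18 in scramble cells (edgeR adjusted p = 0.0536). These are the H2A genes tested whose longest annotated transcript exceeds 1000 bases; of the 12 with a shorter model, 11 rose and HIST2H2AA4 fell. With the GC and length offsets HIST1H2AC rose, and 6 of the 14 H2A genes did so in all.

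HIST2H2AA3 and HIST2H2AA4 are near-identical copies on chromosome 1 (chr1:149842188-149842736 and chr1:149851061-149851624, GRCh38), and every 75-base stretch of HIST2H2AA3 also occurs in its partner. HIST2H2AA4 had 335 counts in TCF7 knockdown cells with imatinib, 884 in TCF7 knockdown cells, 355 in scramble cells with imatinib and 569 in scramble cells. It fell (fitted log2 fold change -1.10, SE 0.15, edgeR adjusted p = 2.93e-06). HIST2H2AA3 had 3757 counts in TCF7 knockdown cells with imatinib, 1880 in TCF7 knockdown cells, 3418 in scramble cells with imatinib and 2004 in scramble cells. It rose (fitted log2 fold change 0.83, SE 0.0814, edgeR adjusted p = 2.56e-08). HIST2H2AA3 held 91.8% of the pair's counts in TCF7 knockdown cells with imatinib, 68.0% in TCF7 knockdown cells, 90.6% in scramble cells with imatinib and 77.9% in scramble cells. Summed over both copies, the log2 ratio of imatinib over none was 0.51 (counting interval 0.44 to 0.58) in TCF7 knockdown cells and 0.50 (0.42 to 0.57) in scramble cells. How the counting assigned reads that match both copies is not given, so the values of each copy alone are uncertain. In all, 16 members share at least 50% of their 75-base stretches with other genes, 13 of them among the tested. These include HIST1H2BK, HIST2H3D and the pair HIST1H2AI and HIST1H2AJ, which are counted above as separate genes that rose. Summed, that pair had ratios of imatinib over none of 0.36 in TCF7 knockdown cells and 0.38 in scramble cells.

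H2B moved little as a class, with a median ratio of 0.04 in TCF7 knockdown cells and 0.02 in scramble cells. HIST1H2BK, the most abundant H2B gene, had 473 CPM in TCF7 knockdown cells with imatinib, 549 in TCF7 knockdown cells, 491 in scramble cells with imatinib and 452 in scramble cells, and its ratios of imatinib over none were -0.21 in TCF7 knockdown cells and 0.12 in scramble cells. HIST1H2BC had 307 CPM in TCF7 knockdown cells with imatinib, 323 in TCF7 knockdown cells, 312 in scramble cells with imatinib and 312 in scramble cells. HIST2H2BF had 267 CPM in TCF7 knockdown cells with imatinib, 255 in TCF7 knockdown cells, 241 in scramble cells with imatinib and 238 in scramble cells. None of these 3 genes passed, and neither did HIST1H2BF with ratios of -0.26 in TCF7 knockdown cells and -0.12 in scramble cells (edgeR adjusted p = 0.057).

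The H2B genes that rose were HIST2H2BE, HIST1H2BN and HIST1H2BO. Annotated exons of HIST1H2BN overlap those of HIST1H2AL on the same strand and of HIST1H2AK on the opposite strand. Both of these H2A genes rose, so the row may not measure HIST1H2BN alone. HIST2H2BE, on chromosome 1 (chr1:149884459-149886652, GRCh38) and also known as a polyadenylated transcript of differentiated cells, had 232 CPM in TCF7 knockdown cells with imatinib, 159 in TCF7 knockdown cells, 179.7 in scramble cells with imatinib and 146 in scramble cells. Its libraries with imatinib were above those without it. It rose (fitted log2 fold change 0.42, SE 0.0743, edgeR adjusted p = 0.000106). HIST1H2BN had ratios of 0.38 in TCF7 knockdown cells and 0.23 in scramble cells (fitted log2 fold change 0.30, SE 0.0752, edgeR adjusted p = 0.004) and HIST1H2BO of 0.37 in TCF7 knockdown cells and 0.11 in scramble cells (fitted log2 fold change 0.24, SE 0.0776, edgeR adjusted p = 0.0248). With the GC and length offsets the fitted change of HIST1H2BO was -0.013 and did not pass, and HIST1H2BK and HIST1H2BL fell.

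Of the 8 H3 genes tested, 3 rose with imatinib, and they lie in 2 clusters. HIST1H3B, the most abundant H3 gene, had 505 CPM in TCF7 knockdown cells with imatinib, 521 in TCF7 knockdown cells, 498 in scramble cells with imatinib and 509 in scramble cells, and its ratios of -0.04 in TCF7 knockdown cells and -0.03 in scramble cells did not pass. HIST1H3H had 183 CPM in TCF7 knockdown cells with imatinib, 145 in TCF7 knockdown cells, 166 in scramble cells with imatinib and 128 in scramble cells. It rose (fitted log2 fold change 0.35, SE 0.0723, edgeR adjusted p = 0.000616). HIST1H3J had ratios of 0.16 in TCF7 knockdown cells and 0.22 in scramble cells and did not pass (edgeR adjusted p = 0.0651). On chromosome 1, HIST2H3D had 81.2 CPM in TCF7 knockdown cells with imatinib, 52.4 in TCF7 knockdown cells, 72.6 in scramble cells with imatinib and 48.8 in scramble cells. It rose without overlap (fitted log2 fold change 0.60, SE 0.0848, edgeR adjusted p = 4.75e-06). HIST2H3C had 53.4 CPM in TCF7 knockdown cells with imatinib, 32.8 in TCF7 knockdown cells, 49.9 in scramble cells with imatinib and 30.9 in scramble cells. It rose as well (fitted log2 fold change 0.70, SE 0.096, edgeR adjusted p = 3.26e-06). HIST1H3H and HIST2H3C also rose with the GC and length offsets, while HIST2H3D did not pass (ratios with the trend removed -0.04 in TCF7 knockdown cells and 0.19 in scramble cells) and HIST1H3B fell. HIST2H3C and HIST2H3A are copies of each other, and their summed ratio was 0.67 in TCF7 knockdown cells and 0.59 in scramble cells. The 8 H3 genes tested had a median GC content of 60.9%, and with the GC and length trend removed the class medians were -0.11 in TCF7 knockdown cells and -0.07 in scramble cells, where without that step they were 0.26 and 0.19 in these cells.

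H4 genes ranged from a ratio of -0.61 (HIST2H4A) to 0.87 (HIST1H4A) in TCF7 knockdown cells. HIST1H4E had 282 CPM in TCF7 knockdown cells with imatinib, 328 in TCF7 knockdown cells, 284 in scramble cells with imatinib and 315 in scramble cells. HIST1H4C had 236 CPM in TCF7 knockdown cells with imatinib, 226 in TCF7 knockdown cells, 261 in scramble cells with imatinib and 244 in scramble cells. HIST1H4H had ratios of -0.13 in TCF7 knockdown cells and 0.10 in scramble cells. None of these 3 abundant genes passed. HIST1H4B had 123 CPM in TCF7 knockdown cells with imatinib, 85.1 in TCF7 knockdown cells, 131 in scramble cells with imatinib and 97.2 in scramble cells. HIST1H4J had 89.3 CPM in TCF7 knockdown cells with imatinib, 63.4 in TCF7 knockdown cells, 69.00 in scramble cells with imatinib and 48.3 in scramble cells. HIST1H4A had 54.5 CPM in TCF7 knockdown cells with imatinib, 29.9 in TCF7 knockdown cells, 49.1 in scramble cells with imatinib and 37.8 in scramble cells. In each of these genes the libraries with imatinib were above those without it, and each rose. HIST1H4B had a fitted log2 fold change 0.48, SE 0.0756, edgeR adjusted p = 2.47e-05. HIST1H4J had a fitted log2 fold change 0.51, SE 0.0833, edgeR adjusted p = 4.54e-05. HIST1H4A had a fitted log2 fold change 0.62, SE 0.104, edgeR adjusted p = 5.9e-05. HIST1H4J is counted beside HIST1H4K, a near-identical copy whose ratios were -0.25 in TCF7 knockdown cells and 0.06 in scramble cells. The sum of the pair had 0.10 in TCF7 knockdown cells and 0.26 in scramble cells. HIST1H4A and HIST1H4B also rose with the GC and length offsets, while HIST1H4J did not pass (ratios with the trend removed 0.06 in TCF7 knockdown cells and 0.25 in scramble cells) and HIST1H4K fell.

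All 4 proteins of the core are needed in like amounts, and H2A and H2B genes commonly lie head to head around a shared promoter region, which allows a comparison within a locus. There were 11 such neighbours within 1000 bases of each other, with both genes tested in 7. The region between HIST1H2AI and HIST1H2BL is shown because the gene on 1 side rose and the other was not called. The sequence comes from RefSeq's promoters on GRCh38.p14, and the capitals mark the CCAAT and TATA boxes on either strand.
HIST1H2AI (chr6:27807923-27808222, plus strand): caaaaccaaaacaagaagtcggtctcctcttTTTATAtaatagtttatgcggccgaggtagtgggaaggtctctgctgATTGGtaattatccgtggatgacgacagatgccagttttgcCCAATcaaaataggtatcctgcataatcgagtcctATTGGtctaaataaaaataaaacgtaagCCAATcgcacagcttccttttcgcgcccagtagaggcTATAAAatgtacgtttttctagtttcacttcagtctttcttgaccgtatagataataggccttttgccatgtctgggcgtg
The promoter window of HIST1H2BL covers chr6:27807880-27808179, minus strand, and so holds much of the same DNA read the other way. HIST1H2AI had ratios of 0.36 in TCF7 knockdown cells and 0.37 in scramble cells, while HIST1H2BL had -0.03 in TCF7 knockdown cells and -0.03 in scramble cells. HIST1H2AH had 0.73 in TCF7 knockdown cells and 0.52 in scramble cells, while its neighbour HIST1H2BK had -0.21 in TCF7 knockdown cells and 0.12 in scramble cells. HIST3H2A had 0.72 in TCF7 knockdown cells and 0.50 in scramble cells, and HIST3H2BB had 0.25 in TCF7 knockdown cells and 0.01 in scramble cells. In these 3 loci the H2A gene rose and its H2B neighbour was not called. HIST1H2AH and HIST3H2A also rose with the GC and length offsets, while HIST1H2AI did not pass, and HIST1H2BL and HIST1H2BK fell. Over the 7 neighbours, the H2A ratio exceeded the H2B ratio in 5 in TCF7 knockdown cells and in 6 in scramble cells, with median differences of 0.27 and 0.18. After the curve was subtracted it did so in 5 in each background, with median differences of 0.28 and 0.20. HIST1H2AG and HIST1H2BJ went the other way in both backgrounds, with the H2A gene lower by ratio. With the curve subtracted, so did HIST2H2AC and HIST2H2BE, with differences of -0.48 in TCF7 knockdown cells and -0.23 in scramble cells. For knockdown over scramble, the H2A ratio exceeded the H2B ratio in 3 of 7 under imatinib and in 2 of 7 without it. The difference between H2A and H2B genes was not tested.

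**Figure D3:**
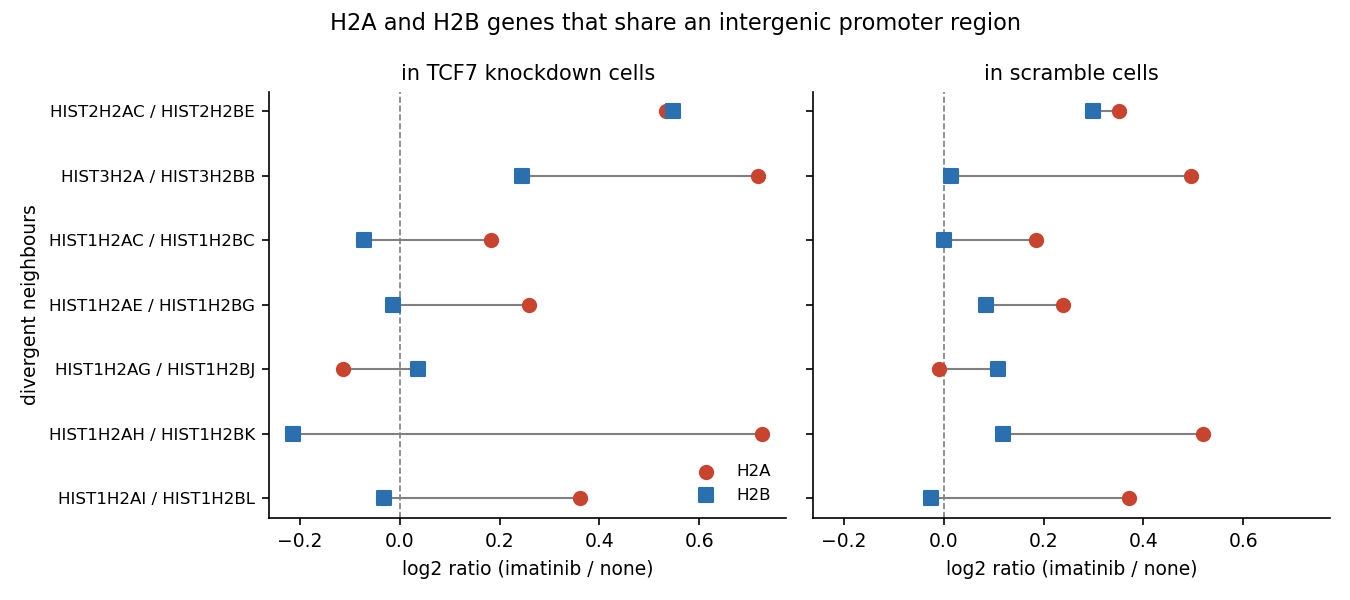
Log2 ratio of imatinib over none (x axis) for H2A genes (circles) and H2B genes (squares) that start within 1000 bases of each other, 1 line per locus, in TCF7 knockdown cells (left) and scramble cells (right). The H2A gene lies to the right of its H2B neighbour in 5 of 7 loci in TCF7 knockdown cells and in 6 of 7 in scramble cells.

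Promoters of the members, 250 bases before to 50 bases after the start in RefSeq, could be matched for 56 of 69 members and were searched on both strands for short motifs known from histone genes; none of the motifs contains another. The octamer ATTTGCAT, bound by OCT1, was found in 10 of 13 H2A and 14 of 18 H2B promoters and in 0 of the H1, H3 and H4 promoters. Of all 35116 promoters, 1.77% held it. Windows of H2A and H2B neighbours share DNA, so the same octamer, CCAAT or TATA match can be counted for both genes. The H1 box AAACACA was found in 6 of 6 H1 promoters, against 5.64% of all promoters. CCAAT was found in 48 of 56 members (34.6% of all promoters) and in 3 of 11 H4 promoters, and TATAAA in 36 of 56 (11.5% of all promoters). CTTTGAT, a core sequence recognised by TCF and LEF factors such as TCF7, was found in 0 of 56 members and 2.62% of all promoters. A window without these letters says nothing of binding. The promoters of HIST1H2AE, HIST1H1E and HIST1H4J, which rose with imatinib, are windows with an octamer, with an H1 box and with neither. In the HIST1H2AE window the octamer and the TATA box match the opposite strand. Both lie at the end next to HIST1H2BG, its minus-strand neighbour, which was not called with imatinib. Capitals mark the octamer, the CCAAT box, the TATA box and the H1 box on either strand.
HIST1H2AE (chr6:26216671-26216970, plus strand): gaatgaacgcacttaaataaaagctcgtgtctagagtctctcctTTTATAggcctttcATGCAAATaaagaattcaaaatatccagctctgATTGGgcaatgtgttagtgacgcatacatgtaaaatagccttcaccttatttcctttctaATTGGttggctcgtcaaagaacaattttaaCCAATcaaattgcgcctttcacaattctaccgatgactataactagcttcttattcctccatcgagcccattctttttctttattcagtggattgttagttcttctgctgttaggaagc
HIST1H1E (chr6:26156079-26156378, plus strand): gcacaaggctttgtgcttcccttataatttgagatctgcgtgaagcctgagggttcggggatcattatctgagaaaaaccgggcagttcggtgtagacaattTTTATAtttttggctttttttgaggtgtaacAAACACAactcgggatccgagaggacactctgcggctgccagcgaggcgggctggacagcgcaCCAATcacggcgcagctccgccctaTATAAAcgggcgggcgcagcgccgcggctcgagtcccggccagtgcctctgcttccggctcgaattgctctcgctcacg
HIST1H4J (chr6:27823842-27824141, plus strand): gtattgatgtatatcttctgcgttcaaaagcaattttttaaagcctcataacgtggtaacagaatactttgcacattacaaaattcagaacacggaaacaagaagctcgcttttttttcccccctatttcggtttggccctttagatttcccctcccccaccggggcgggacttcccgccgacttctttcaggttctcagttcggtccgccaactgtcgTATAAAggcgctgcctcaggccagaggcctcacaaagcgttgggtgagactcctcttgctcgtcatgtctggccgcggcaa
Among members that rose with imatinib, 8 of 21 promoters held the octamer, against 10 of 23 among members tested and not called, and TATAAA was found in 15 of 21 against 13 of 23. A match describes the letters only and shows neither a bound site nor a cause.

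GC content of the longest annotated transcript was set against the imatinib ratio because both varied between classes. The 53 tested members with an annotated transcript had a median GC content of 57.2%, against 47.3% for all genes tested, with medians of 61.7% for H2A and 48.0% for H2B. These values depend on how far each annotated model extends. Members with a longest transcript under 1000 bases had a median of 59.8%, and those with a longer one 47.3%. Within H2A these medians were 61.8% and 44.4%. The part of the annotation in the class difference, the values with the trend removed and the offset calls was not tested. Across these members, Spearman's correlation between GC content and the ratio of imatinib over none was 0.47 in TCF7 knockdown cells and 0.52 in scramble cells. Across 10095 genes of the whole table with a mean of 5 CPM or more it was 0.75 in TCF7 knockdown cells and 0.68 in scramble cells. The points within a panel come from the same pair of libraries, so these values are descriptions. With the trend over all genes removed, the members' correlation was -0.14 in TCF7 knockdown cells and -0.02 in scramble cells. The medians of H1 after removal were 0.33 in TCF7 knockdown cells and 0.23 in scramble cells, those of H2A 0.18 in TCF7 knockdown cells and 0.21 in scramble cells, those of H2B 0.05 and 0.08 in these cells, and those of H4 0.10 and 0.17.

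**Figure D4:**
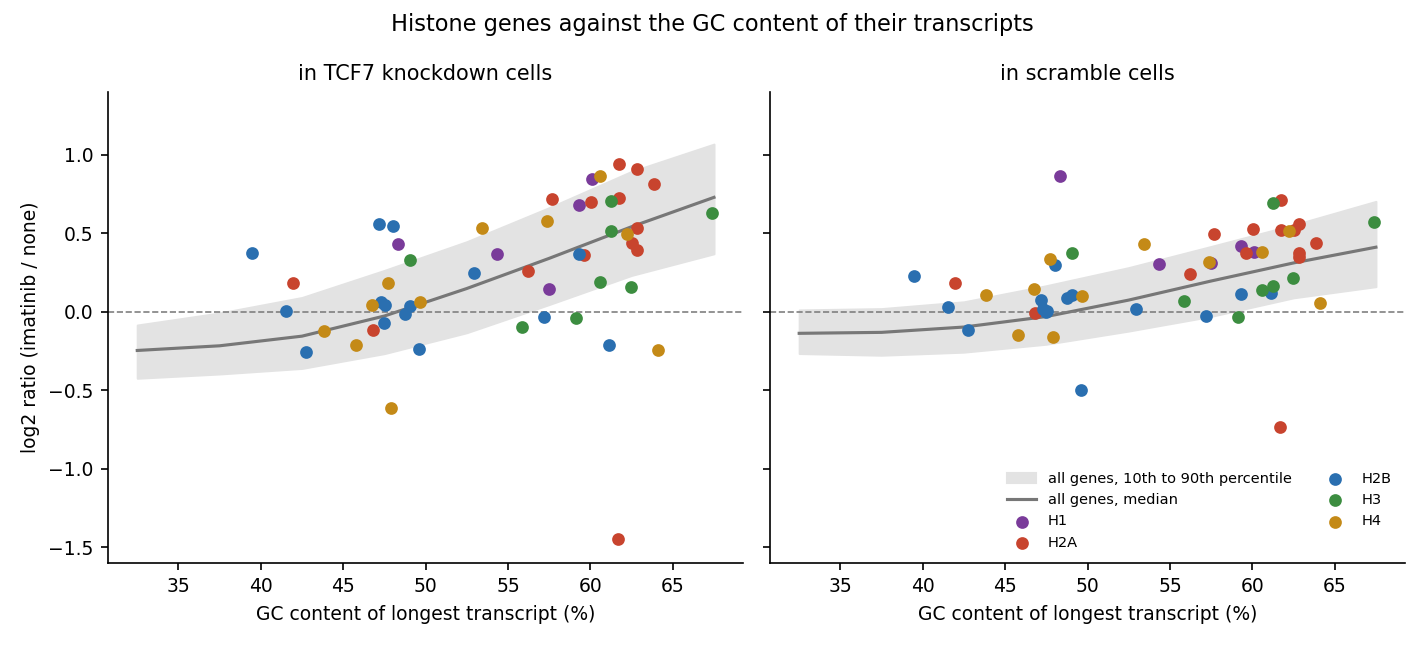
Log2 ratio of imatinib over none (y axis) against the GC content of the longest transcript (x axis, percent). TCF7 knockdown cells are on the left and scramble cells on the right. Points are the 53 tested members with an annotated transcript, coloured by class. The line and band are the median and the 10th to 90th percentiles of genes with a mean of 5 CPM or more. The band rises with GC content (Spearman 0.75 and 0.68), and most members lie on or near it, with HIST2H2AA4 below it at -1.45 and -0.73. In TCF7 knockdown cells, HIST1H4K (-0.25), HIST1H2BK (-0.21), HIST1H3B (-0.04) and HIST1H2BL (-0.03) are among the others below it. HIST2H2BE (0.55) and HIST1H2BN (0.38) are among those above it there.

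TCF7 knockdown was called in fewer histone genes than imatinib. Across the table knockdown changed 7.14% of the genes tested (3.8% rose and 3.34% fell), and of the 54 members 5 (9.26%) rose and 0 fell. The median ratio of the members was 0.08 under imatinib and 0.03 without it, against 0.02 under imatinib and 7.5e-06 without it for all genes tested. HIST1H4J (chr6:27824108-27824480, GRCh38) had the levels given above, and each knockdown library exceeded its scramble partner. It rose (fitted log2 fold change 0.38, SE 0.0832, edgeR adjusted p = 0.00239; ratios 0.37 under imatinib and 0.39 without it). HIST1H2AC rose (fitted log2 fold change 0.26, SE 0.0686, edgeR adjusted p = 0.0118), with ratios of 0.26 under imatinib and 0.27 without it. HIST1H1C rose (fitted log2 fold change 0.23, SE 0.071, edgeR adjusted p = 0.042), with ratios of 0.15 under imatinib and 0.31 without it. HIST2H2BE rose (fitted log2 fold change 0.25, SE 0.0743, edgeR adjusted p = 0.0363), with ratios of 0.37 (counting interval 0.32 to 0.42) under imatinib and 0.12 (counting interval 0.06 to 0.18) without it. With the GC and length offsets HIST1H4J, HIST1H2AC and HIST2H2BE rose and HIST1H1C did not pass, while HIST2H2AA4 and HIST1H4H rose and HIST1H1E and HIST1H4B fell.

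The row named HIST1H3D had 497 counts in TCF7 knockdown cells with imatinib, 511 in TCF7 knockdown cells, 398 in scramble cells with imatinib and 365 in scramble cells. It rose (fitted log2 fold change 0.52, SE 0.144, edgeR adjusted p = 0.0191; ratios 0.44 under imatinib and 0.60 without it). Its Ensembl identifier belongs in GENCODE release 29 to AL031777.3, a transcript that runs through the loci of HIST1H2AD and HIST1H3D, so the row does not measure HIST1H3D alone. HIST1H4J and HIST1H4K, as near-identical copies, summed to ratios of 0.23 (counting interval 0.18 to 0.29) under imatinib and 0.39 (0.33 to 0.45) without it. DESeq2 called 0 members for knockdown, limma on the deposited FPKM values called 2, and the fit without imatinib in the model called 0. Leaving out a library from the fit without imatinib gave 0 to 3 that rose.

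Several members had knockdown ratios of opposite sign in the 2 drug states, and none of these was called. HIST1H1E had 0.14 under imatinib and -0.32 without it, HIST1H4A had 0.15 under imatinib and -0.34 without it, and HIST1H2BK had -0.05 under imatinib and 0.28 without it. HIST1H1T, at under 2 CPM, had ratios of 0.92 (counting interval 0.34 to 1.62) under imatinib and 1.36 (counting interval 0.62 to 2.36) without it and did not pass (edgeR adjusted p = 0.084). At a limit of 2-fold, knockdown over scramble gave 0 members under imatinib (2.83% of all genes) and 1 without it, HIST1H1T (2.68% of all genes). Imatinib over none gave 1 in TCF7 knockdown cells, HIST2H2AA4 (3.71% of all genes), and 0 in scramble cells (1.31% of all genes).

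**Figure D5:**
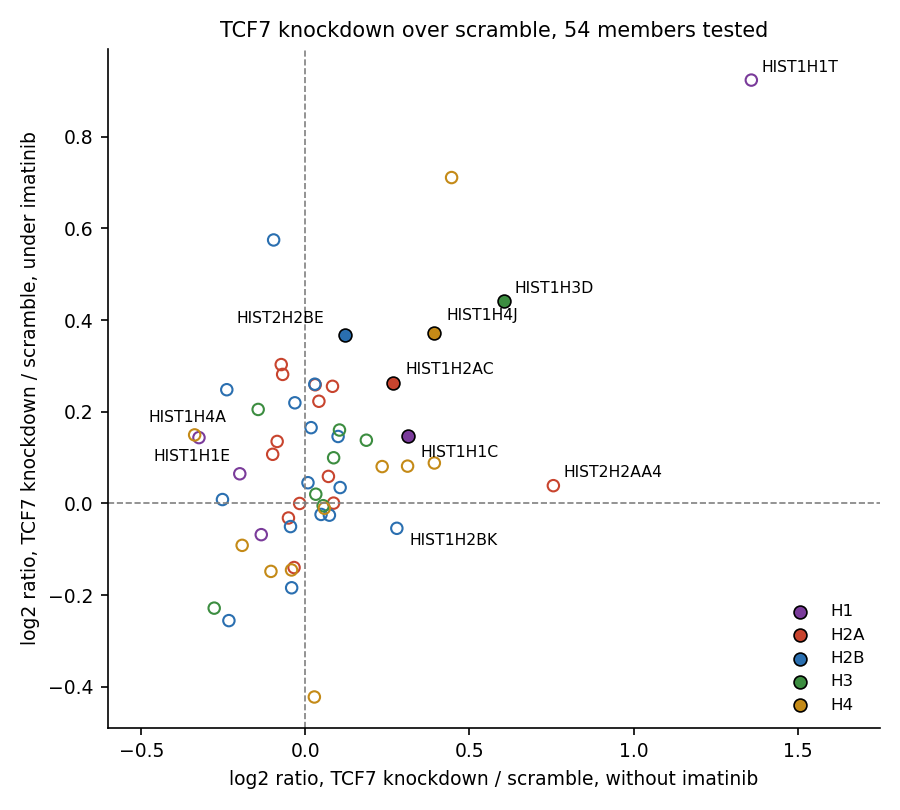
Log2 ratio of TCF7 knockdown over scramble without imatinib (x axis) and under imatinib (y axis) for the 54 members tested, coloured by class. The 5 filled points (HIST1H3D, HIST1H4J, HIST1H2AC, HIST1H1C and HIST2H2BE) passed edgeR's test and lie above 0 on both axes; open points did not pass.

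Position in the genome and reported polyadenylation gave further groupings of the members tested. In the large cluster on chromosome 6, 7 of 22 members near 26 Mb and 10 of 17 near 27 Mb rose with imatinib, and 6 of 13 members of the HIST2 cluster on chromosome 1 rose and 1 fell. The median ratios of imatinib over none were 0.16 in TCF7 knockdown cells and 0.12 in scramble cells near 26 Mb, 0.36 and 0.23 near 27 Mb, and 0.43 and 0.30 in the HIST2 cluster. Median GC content was 51.5%, 59.6% and 61.2% in these 3 groups. With the trend over GC content and length removed, the order of the groups changed. The medians were then 0.11 in TCF7 knockdown cells and 0.14 in scramble cells near 26 Mb, 0.05 and 0.18 near 27 Mb, and 0.04 and 0.08 in the HIST2 cluster. The 9 members tested that are reported to be made also as polyadenylated mRNA had medians of 0.04 in TCF7 knockdown cells and 0.12 in scramble cells, against 0.37 and 0.23 for the other 45; 3 of the 9 and 21 of the 45 rose. With knockdown, 3 of the 9 and 2 of the other 45 rose, against 3.8% of all genes tested. With imatinib, 13.8% of all genes tested rose and 7.08% fell. Differences between these groupings were not tested.

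The list of replacement and variant histones gave 8 genes tested. Of these, 1 rose with knockdown (against 3.8% of all genes tested) and 2 rose with imatinib (against 13.8%). H2AFX, which encodes the variant phosphorylated at DNA breaks and also yields a stem-loop mRNA, had 232 CPM in TCF7 knockdown cells with imatinib, 98.99 in TCF7 knockdown cells, 140.3 in scramble cells with imatinib and 89.4 in scramble cells. The library with both treatments stood highest, and H2AFX rose with imatinib (fitted log2 fold change 0.94, SE 0.089, edgeR adjusted p = 1.41e-08) and with knockdown (fitted log2 fold change 0.44, SE 0.0885, edgeR adjusted p = 0.000929). H1FX, a linker histone variant, had 33.8 CPM in TCF7 knockdown cells with imatinib, 14.98 in TCF7 knockdown cells, 23.2 in scramble cells with imatinib and 14.2 in scramble cells. It rose with imatinib (fitted log2 fold change 0.95, SE 0.128, edgeR adjusted p = 2.74e-06). Their GC content is 66.4% for H2AFX and 68.6% for H1FX, and the ratios of H2AFX with the trend removed were 0.51 in TCF7 knockdown cells and 0.23 in scramble cells.

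Of 39 genes of histone transcription and mRNA processing tested, 6 rose and 3 fell with imatinib (against 13.8% and 7.08% of all genes tested), and 1 rose with knockdown (against 3.8% of all genes tested). NPAT, the coactivator that switches on histone genes at S phase entry, had 130.0 CPM in TCF7 knockdown cells with imatinib, 165 in TCF7 knockdown cells, 131 in scramble cells with imatinib and 150.2 in scramble cells. It fell with imatinib (fitted log2 fold change -0.27, SE 0.0737, edgeR adjusted p = 0.00798). CASP8AP2, its partner in the histone locus body, fell too (fitted log2 fold change -0.34, SE 0.0713, edgeR adjusted p = 0.000907). NPAT and SLBP are described for their roles and were chosen after their values were seen. The largest fitted log2 fold changes called with imatinib otherwise were those of SNRPB, an Sm protein (0.47), LSM10, a U7 protein (0.40), UPF1, a helicase of histone mRNA decay (0.39) and the cleavage factor subunits CPSF1 (0.34) and CPSF4 (0.32), which rose. With the trend over GC content and length removed, the ratios of imatinib over none were 0.22 in TCF7 knockdown cells and 0.21 in scramble cells for SNRPB, 0.01 and 0.01 in these cells for UPF1, -0.19 and -0.02 for CPSF1, and 0.03 and -0.02 for CPSF4. Those of NPAT were -0.13 in TCF7 knockdown cells and -0.06 in scramble cells, those of CASP8AP2 -0.15 and -0.16, and those of LSM10 0.08 and 0.20. SLBP had 155 CPM in TCF7 knockdown cells with imatinib, 177 in TCF7 knockdown cells, 158 in scramble cells with imatinib and 161 in scramble cells. It did not pass for imatinib (edgeR adjusted p = 0.303) or knockdown (edgeR adjusted p = 0.747). CDK2, the kinase that activates NPAT, rose with knockdown (fitted log2 fold change 0.26, SE 0.0799, edgeR adjusted p = 0.0375).

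Of 31 histone chaperones and importins tested, 5 rose and 4 fell with imatinib (against 13.8% and 7.08% of all genes tested), and 1 rose and 1 fell with knockdown (against 3.8% and 3.34% of all genes tested). The fitted log2 fold changes with imatinib were 0.48 for TONSL, 0.37 for NPM3 and 0.28 for CHAF1A, a subunit of the assembly factor CAF-1, which rose, while ATRX (-0.35), NAP1L1, a chaperone of H2A and H2B (-0.31), and the importin IPO7 (-0.25) fell. With the trend removed, the imatinib ratios of TONSL were -0.01 in TCF7 knockdown cells and 0.01 in scramble cells, and those of CHAF1A 0.03 and -0.04 in these cells. Such values are not given here for NPM3 or for the chaperones and importins that fell. With knockdown, ASF1B, a chaperone of H3 and H4, rose (fitted log2 fold change 0.36, SE 0.0976, edgeR adjusted p = 0.0162) and the importin IPO5 fell (fitted log2 fold change -0.25, SE 0.0724, edgeR adjusted p = 0.0285). Of 46 genes of DNA replication and the G1/S step tested, 10 rose and 3 fell with imatinib (against 13.8% and 7.08% of all genes tested) and 4 rose and 0 fell with knockdown (against 3.8% and 3.34% of all genes tested). Those that rose with knockdown include MCM6, a helicase subunit (fitted log2 fold change 0.48, SE 0.0699, edgeR adjusted p = 7.89e-06), GINS4 and TK1, the S phase thymidine kinase. The largest fitted log2 fold changes called with imatinib were those of E2F1 (0.57) and E2F2 (0.45), activators of S phase genes, CDT1, a licensing factor (0.56), POLD1, a polymerase subunit (0.42), TK1 (0.29) and the ligase LIG1 (0.27), all of which rose. With the trend removed, the imatinib ratios in TCF7 knockdown cells were 0.12 for E2F1, 0.39 for E2F2, 0.03 for CDT1, -0.17 for POLD1, -0.26 for TK1 and -0.03 for LIG1. In scramble cells they were 0.11 for E2F1, -0.04 for E2F2, 0.03 for CDT1, -0.06 for POLD1, -0.05 for TK1 and 0.08 for LIG1. The replication genes had median ratios of 0.10 under imatinib and 0.11 without it for knockdown over scramble, and of -0.02 in TCF7 knockdown cells and -0.01 in scramble cells for imatinib over none. The share of cells in S phase was not measured, and its part in the histone levels was not tested.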

How the data were processed

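Per the labels' protocols, 3 µg of total RNA per K562/G01 culture (4 in all) went through ribosomal RNA removal and a strand-keeping library kit. The submitters' processing notes name FastQC, HISAT2, HTSeq 0.6.1 and GRCh38. Neither the annotation release, the strand setting nor the handling of reads with several matches is given in the sources used here, so copies and overlapping genes are uncertain (7 members overlap another gene's exons on the same strand and 12 on the opposite strand). Per the file headers, the authors deposited counts and FPKM per gene for every library. The count columns entered the tests unchanged. FPKM as deposited was handled as a score, because 6 genes have negative values, and served only an alternative (log2 of the value plus 0.1).

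Genes with at least 1 CPM in 2 libraries were tested, 13296 in all, with edgeR 4.0.16 (R 4.3.3, quasi-likelihood, TMM, both factors, Benjamini-Hochberg over all genes tested); the fit had 1 residual and 33.7 prior degrees of freedom and a common biological coefficient of variation of 0.0783. On simulated data with 13296 genes, the knockdown fit found 87 of 100 genes changed 1.5-fold and 100 of 100 changed 2-fold, and called 9 unchanged genes. Every simulated gene had the same variation, and changes were placed only in the more abundant genes. No GC trend or difference between cultures was simulated, so these rates need not hold for the measured data. Log2 ratios use a prior count of 2 and exact binomial 95% intervals, which cover counting error only, reads not being independent molecules. Identifiers were matched to GENCODE release 29 (28329 of 28482), which gave GC content, length and stem-loops; promoters came from RefSeq. A smooth trend over GC content and length (mgcv 1.9.3) was removed from ratios or entered as offsets. DESeq2 1.42.0 and limma 3.58.1 served as alternatives.

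The members, the gene lists and the trend correction were chosen with earlier results of these data known. Named members are the 4 most abundant of each class, every member called, those at 2-fold in both pairs of a factor and testis genes; of each of the 4 companion lists, up to 6 called members with the largest fitted changes are named. Some genes of the marker and companion lists are not reported here by name.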

Additional observations from a re-analysis of the deposited data

Results flagged for a closer look

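Opposite signs in the 2 drug states or the 2 hairpin backgrounds, with both counting intervals clear of 0, drew attention to 6 members; in each case the difference was not tested. The knockdown ratio under imatinib minus that without it was 0.47 for HIST1H1E (0.14 and -0.32), 0.49 for HIST1H4A (0.15 and -0.34), 0.26 for HIST1H1B (0.06 and -0.20) and 0.21 for HIST1H2AH (0.11 and -0.10). All 4 of these genes rose with imatinib over both backgrounds. HIST1H2BK went the other way, with a difference of -0.33 (-0.05 under imatinib and 0.28 without it), which is also the difference of its imatinib ratios, -0.21 in TCF7 knockdown cells and 0.12 in scramble cells. For HIST1H4H the imatinib ratio in TCF7 knockdown cells minus that in scramble cells was -0.23 (-0.13 and 0.10).

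Some rows left out of the set by their pseudogene symbols held more counts than the 3 that a count of 0 allows. The highest count in a library was 39 for HIST2H3DP1, 6 for HIST1H1PS1, 5 for HIST1H2BPS2 and 6 for HIST1H4PS1.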

How the results depend on the processing

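The number of members that rose with knockdown, 5, was 0 with DESeq2, 2 with limma, 0 without imatinib in the fit and 0 to 3 with a library left out; the number that fell, 0, was 2 with GC and length offsets and 0 to 1 with a library left out. For imatinib, the 24 that rose were 14 with the offsets, 0 without knockdown in the fit and 0 to 12 with a library left out; the 1 that fell was 2 with DESeq2 size factors, 5 with the offsets, 0 without knockdown in the fit and 0 with any library left out. Members at 2-fold without an expression filter were 4 (knockdown under imatinib), 5 (knockdown without it), 9 (imatinib in TCF7 knockdown cells) and 3 (imatinib in scramble cells), and at 1.5-fold they were 2, 3, 13 and 4 in these pairs; a filter at 5 CPM left 0 for knockdown without imatinib.

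The summed log2 ratio for knockdown under imatinib, 0.07, was 0.060 with DESeq2 size factors, 0.052 with total counts, 0.060 without the most abundant member, 0.085 as the members' median and -0.025 with the trend removed. For knockdown without imatinib, 0.08, it was 0.075 with total counts, 0.060 without near-identical copies, 0.048 without the most abundant member, 0.029 as the median and 0.069 with the trend removed. For imatinib in TCF7 knockdown cells, 0.17, it was 0.16 with DESeq2 size factors, 0.18 without copies, 0.29 as the median and 0.0033 with the trend removed; in scramble cells, 0.19, it was 0.20 with total counts, 0.17 without copies or without the most abundant member, 0.20 as the median and 0.10 with the trend removed. By class, removing the trend reversed H1 (-0.017), H2B (-0.018) and H3 (-0.077) for knockdown under imatinib, H2B (-0.052) and H3 (-0.18) for imatinib in TCF7 knockdown cells and H3 (-0.037) in scramble cells. H1 for knockdown without imatinib was -0.27 without HIST1H1C and -0.13 as the median. HIST2H2BE for knockdown ranged from -0.031 (without the library of TCF7 knockdown cells with imatinib) to 0.50 with a library and the imatinib term left out together, and HIST1H2BO for imatinib was -0.013 with the offsets. The cause of these changes was not tested.

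No paired analysis was possible because the labels carry no replicate numbers to block on; the fit with both factors compares each factor within the levels of the other. Every fit with a library left out also drops the other factor, since 3 libraries leave no residual degree of freedom with both, so a lost call or a turned sign there cannot be put down to the library. In such a fit 1 side of the comparison stands alone and its spread is assumed from the others.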
